A study of Homo sapiens with 24 samples.

Results

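Epithelial cells hold to each other through membrane proteins made at the endoplasmic reticulum and keep their shape with keratins and catenins made in the cytosol. The mRNAs of 8 such proteins were followed here among the 28307 genes of a count table. The members were the rows named EPCAM, CDH1 and CLDN4, which encode adhesion proteins that enter the endoplasmic reticulum while they are translated, and the rows named KRT8, KRT18, KRT19, CTNNB1 and JUP, whose proteins are made on cytosolic ribosomes. All 8 rows were found, and all 8 passed the filter on low counts in every fit. The rule used their names and no measured value, although earlier results of these data were known when the members were proposed. Positions below are those of the NCBI gene table for GRCh38.p14, and all 8 are protein-coding genes.

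The libraries are RNA immunoprecipitations from HCT116, an established human colorectal carcinoma line, that carries a GFP knock-in on the RUVBL1 or the RPAP3 gene. RUVBL1, an AAA+ ATPase, and RPAP3, a scaffold, are parts of the R2TP co-chaperone, as is RUVBL2. R2TP acts with HSP90 on its clients during assembly. In the RUVBL1 line, lysates of cells given CB-6644 (0.5 µM for 16 h) plus puromycin (100 µg/mL for 30 min), CB-6644 alone, puromycin alone or no drug were each passed over GFP-Trap beads, here GFP beads, and over agarose control beads with no anti-GFP coupled to them, here uncoupled beads. In the RPAP3 line the cells had puromycin or no drug, with the same beads. This gave 12 groups of 2 libraries, 8 with RUVBL1 tagged and 4 with RPAP3 tagged. CB-6644 inhibits the ATPase of RUVBL1 and RUVBL2, and puromycin ends translation by releasing nascent chains. Whether each line is a single clone was not given in the sources used here, every group carries a tagged bait, and total RNA of the lysates was not analysed here.

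EPCAM is a homophilic cell adhesion glycoprotein of epithelia, CDH1 is E-cadherin, the calcium-dependent adhesion receptor of adherens junctions, and CLDN4 is a claudin of tight junctions. KRT8 and KRT18 are the type II and type I keratins that pair into the intermediate filaments of simple epithelia, and KRT19 is a further type I keratin. CTNNB1, beta-catenin, and JUP, plakoglobin, are armadillo-repeat proteins that bind the tail of E-cadherin, and beta-catenin is also the effector of WNT signalling. HCT116 is known to carry an activating mutation of CTNNB1. A nascent secretory protein is carried to the endoplasmic reticulum with its mRNA, so that the adhesion mRNAs are read on membrane-bound ribosomes and the keratin and catenin mRNAs on free ones. The comparisons ask whether these mRNAs came down with a tagged co-chaperone over the RNA that stuck to plain beads, and whether recovery depended on translation or on the ATPase.

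The RPAP3 libraries were mostly deeper, at 30844089 to 50394245 counts each, than the RUVBL1 libraries, at 9019665 to 33051512. Levels are in CPM, the count as a share of its library on a fixed scale, after TMM scaling within each line, so a level in one line is not set against a level in the other except in a fit of all 24 libraries. Transcript lengths were not used, so levels are not compared between genes. Of 11 colon epithelial markers, 6 had a median of at least 5 CPM over the 24 libraries, these being EPCAM, CDH1, KRT8, KRT18, KRT19 and CDX2, while CDX1, VIL1, CEACAM5 and LGR5 had a median of 0. Endothelial, immune and liver markers had no gene at 5 CPM or more. Such a median was held by KRT10 of 5 squamous markers, by VIM, ZEB1 and FN1 of 7 mesenchymal ones and by COL1A1 of 5 fibroblast ones. In a principal component analysis of the RUVBL1 line, replicate 2 of the CB-6644 GFP beads, replicate 1 of the GFP beads with both drugs and replicate 2 of the untreated uncoupled beads stood apart from the others. Whether replicates came from separate cultures is not in the labels. The p-values therefore cover the spread among the sequenced libraries, which may be technical.

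Among the adhesion mRNAs, EPCAM (chromosome 2, 47369311 to 47387020) had 113 and 166 CPM on GFP beads and 179.9 and 197 CPM on uncoupled beads in the RUVBL1 line under both drugs. It had 104 and 88.1 CPM on GFP beads and 121 and 121 CPM on uncoupled beads under CB-6644. With puromycin alone EPCAM stood at 148 and 141 CPM on GFP beads and 226 and 206 CPM on uncoupled beads, against 105 and 109 CPM on GFP beads and 137 and 132 CPM on uncoupled beads without a drug. The uncoupled libraries lay above the GFP libraries at each of these treatments, and the highest means were those of the puromycin-treated uncoupled groups. Ordered by mean, 5 of the 7 pairs of neighbouring RUVBL1 groups did not overlap. In the RPAP3 line EPCAM had 399 and 407 CPM on GFP beads and 461 and 404 CPM on uncoupled beads after puromycin, against 117 and 120.2 CPM on GFP beads and 115 and 104 CPM on uncoupled beads without it. All 4 puromycin libraries of that line lay above all 4 untreated ones, whichever the beads.

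CDH1 (chromosome 16, 68737292 to 68835537) had 28.6 and 30.5 CPM on GFP beads and 21.2 and 29.8 CPM on uncoupled beads under both drugs in the RUVBL1 line and 19.4 and 23.2 CPM on GFP beads and 14.5 and 20.2 CPM on uncoupled beads under CB-6644. Puromycin alone gave 40.4 and 43.5 CPM on GFP beads and 26.7 and 25.2 CPM on uncoupled beads, against 16.3 and 20.3 CPM on GFP beads and 28.4 and 22.4 CPM on uncoupled beads in untreated cells. The puromycin GFP beads held the highest CDH1 level of the 8 groups and overlapped no other, and 2 of 7 neighbouring pairs in the order of means were apart. CDH1 in the RPAP3 line was at 42.9 and 52.4 CPM on GFP beads and 55.9 and 42.5 CPM on uncoupled beads after puromycin, against 13.4 and 14.4 CPM on GFP beads and 13.4 and 13.1 CPM on uncoupled beads without it, and again no puromycin library reached down to an untreated one.

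CLDN4 (chromosome 7, 73830996 to 73832690) had RUVBL1-line levels of 29.7 and 36.4 CPM on GFP beads and 32.7 and 37.2 CPM on uncoupled beads under both drugs and 19.8 and 36.3 CPM on GFP beads and 30.6 and 26.3 CPM on uncoupled beads under CB-6644. After puromycin they were 46.6 and 67.7 CPM on GFP beads and 30.2 and 39.2 CPM on uncoupled beads, against 31.1 and 44.7 CPM on GFP beads and 38.0 and 42.3 CPM on uncoupled beads in untreated cells. The puromycin GFP libraries were highest, and the other 7 groups formed a chain of overlapping neighbours. With RPAP3 tagged, CLDN4 had 37.8 and 49.5 CPM on GFP beads and 46.7 and 47.1 CPM on uncoupled beads after puromycin, against 20.6 and 28.6 CPM on GFP beads and 27.2 and 29.3 CPM on uncoupled beads without it.

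Of the keratins, KRT8 (chromosome 12, 52897191 to 52949860) had 2047 and 2246 CPM on GFP beads and 1937 and 2086 CPM on uncoupled beads in the RUVBL1 line under both drugs and 1998 and 1552 CPM on GFP beads and 1786 and 1722 CPM on uncoupled beads under CB-6644. KRT8 after puromycin was at 2891 and 3207 CPM on GFP beads and 2330.1 and 2073 CPM on uncoupled beads, against 1895 and 1679.6 CPM on GFP beads and 2445 and 1552 CPM on uncoupled beads in untreated cells. The puromycin GFP libraries were the highest and the other 7 groups overlapped along the order of means, with the untreated uncoupled replicates far apart from each other. With RPAP3 tagged, KRT8 had 1604 and 2078 CPM on GFP beads and 1921 and 1608 CPM on uncoupled beads after puromycin, against 544 and 587 CPM on GFP beads and 648 and 502 CPM on uncoupled beads without it. The annotated span of KRT8 overlaps that of KRT18 (52948855 to 52952906), and the strand setting of the counting was not given in the sources used here, so reads of their shared end are uncertain. Processed copies took few reads: KRT8P41 had 9, KRT18P55 67 and KRT19P2 9 over the 24 libraries, against 1057212 for KRT8, 544403 for KRT18 and 584203 for KRT19.

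KRT18 in the RUVBL1 line had 884 and 993 CPM on GFP beads and 949.8 and 1004 CPM on uncoupled beads under both drugs and 1023 and 1039 CPM on GFP beads and 1070.2 and 1074 CPM on uncoupled beads under CB-6644. Its levels after puromycin were 1067 and 908 CPM on GFP beads and 1124 and 1095 CPM on uncoupled beads, against 915 and 924 CPM on GFP beads and 1330.2 and 1133 CPM on uncoupled beads in untreated cells. Unlike the other members with cytosolic products, KRT18 had its highest RUVBL1 means on uncoupled beads, the untreated ones leading, and neighbours from the fourth place down overlapped. The RPAP3 line had 858 and 1179 CPM on GFP beads and 1023 and 819 CPM on uncoupled beads after puromycin, against 369 and 479 CPM on GFP beads and 437 and 375 CPM on uncoupled beads without it.

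KRT19 (chromosome 17, 41523617 to 41528308) was, in the RUVBL1 line, at 864 and 918 CPM on GFP beads and 885 and 901 CPM on uncoupled beads under both drugs and 864 and 822 CPM on GFP beads and 893 and 882 CPM on uncoupled beads under CB-6644. Puromycin gave 1108 and 1084 CPM on GFP beads and 1158 and 997 CPM on uncoupled beads, against 954 and 875 CPM on GFP beads and 1174 and 919.6 CPM on uncoupled beads in untreated cells, and 1 of 7 neighbouring pairs in the order of means was apart. With RPAP3 tagged, KRT19 had 1148 and 1585 CPM on GFP beads and 1398 and 1166 CPM on uncoupled beads after puromycin, against 427 and 501 CPM on GFP beads and 537 and 457 CPM on uncoupled beads without it. For both type I keratins the RPAP3 puromycin libraries lay above all untreated ones of that line.

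Of the catenins, CTNNB1 (chromosome 3, 41199505 to 41240443) had 156 and 186 CPM on GFP beads and 153 and 179.8 CPM on uncoupled beads in the RUVBL1 line under both drugs and 136 and 169 CPM on GFP beads and 126 and 119 CPM on uncoupled beads under CB-6644. With puromycin it had 251 and 273 CPM on GFP beads and 155 and 165 CPM on uncoupled beads, against 156 and 106 CPM on GFP beads and 201 and 118 CPM on uncoupled beads in untreated cells. The puromycin GFP beads again held the highest level, apart from all other groups. The RPAP3 line gave 198 and 228 CPM on GFP beads and 259.9 and 222 CPM on uncoupled beads after puromycin, against 53.0 and 60.6 CPM on GFP beads and 64.9 and 63.9 CPM on uncoupled beads without it.

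JUP (chromosome 17, 41754609 to 41786711) followed the same order at the top, with 173 and 182 CPM on GFP beads and 118 and 128 CPM on uncoupled beads after puromycin in the RUVBL1 line, against 90.1 and 79.1 CPM on GFP beads and 143 and 90.4 CPM on uncoupled beads in untreated cells. Under both drugs it had 117 and 129 CPM on GFP beads and 90.5 and 124 CPM on uncoupled beads, and under CB-6644 80.9 and 96.1 CPM on GFP beads and 93.5 and 87.6 CPM on uncoupled beads. Apart from the puromycin GFP beads, the groups overlapped along the order. JUP in the RPAP3 line had 183 and 233 CPM on GFP beads and 236 and 215 CPM on uncoupled beads after puromycin, against 59.7 and 70.0 CPM on GFP beads and 69.3 and 60.9 CPM on uncoupled beads without it. The plot of levels in every library shows all of these values.

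**Figure D1:**
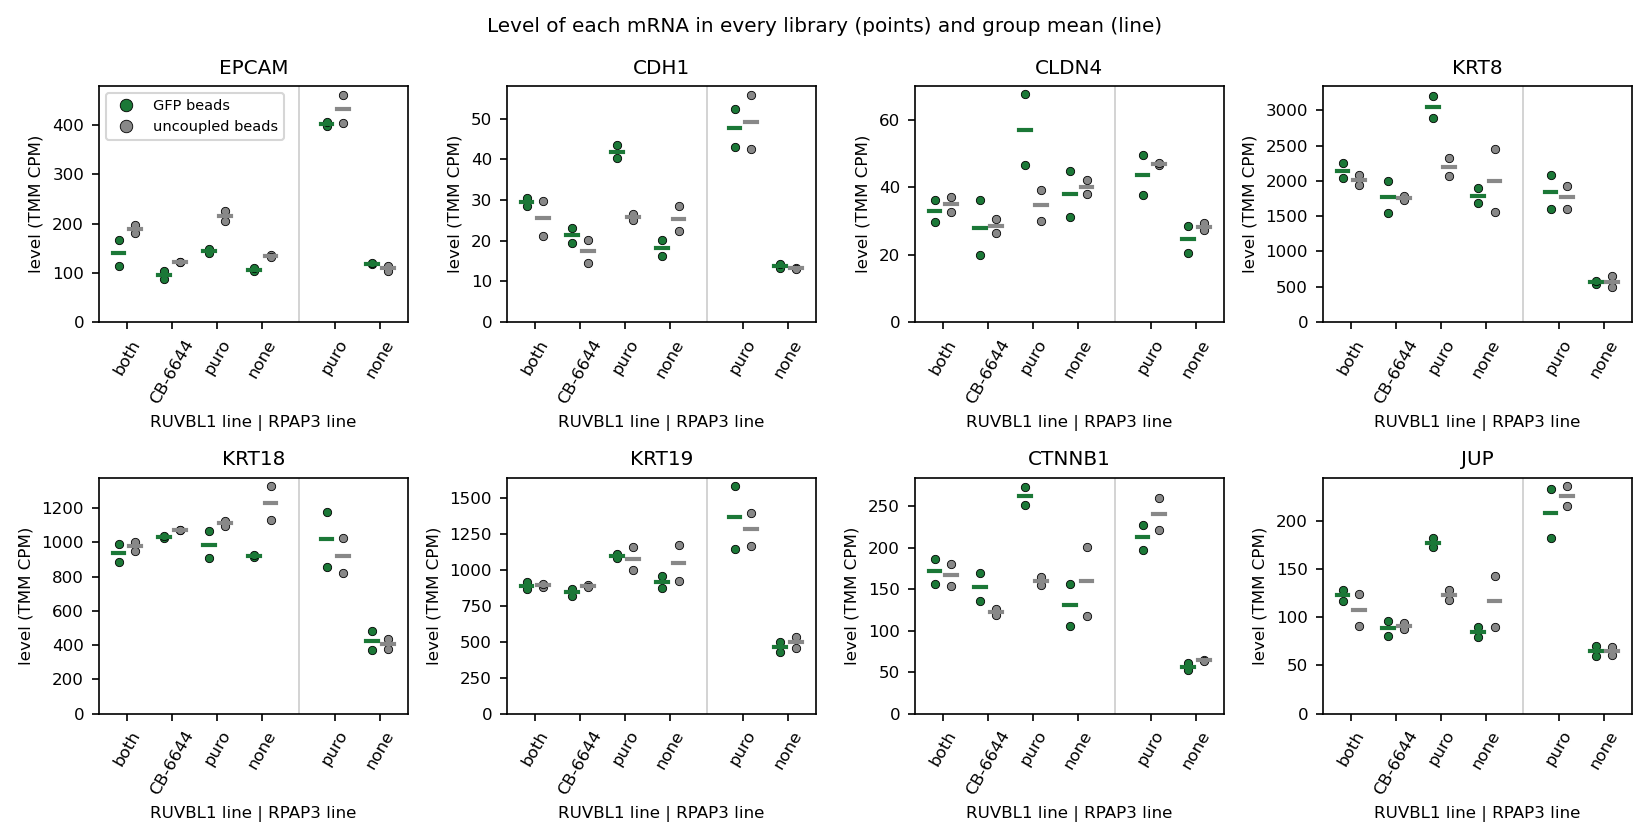
Level of each mRNA in every library (points, TMM-scaled CPM, axes from 0) with the group mean (line). Groups run along the x axis by drug, RUVBL1 line left of the grey line and RPAP3 line right of it, GFP beads (green) beside uncoupled beads (grey), with both standing for CB-6644 plus puromycin, puro for puromycin and none for untreated. In the RPAP3 line the puromycin libraries of each mRNA lie above its untreated libraries on both kinds of beads, as for EPCAM on uncoupled beads at 461 and 404 CPM after puromycin, against 115 and 104 CPM untreated.

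None of the 8 mRNAs was called as recovered with RUVBL1 or RPAP3 over uncoupled beads in edgeR's test of each line, at any treatment, although other settings called some after puromycin in the RUVBL1 line. Enrichment here means log2 of the level on GFP beads over that on uncoupled beads, at 1 treatment and in 1 line, with 2 libraries on each side. It was tested with edgeR's quasi-likelihood test over all genes that passed the filter, with Benjamini-Hochberg adjustment, and called at an adjusted p under 0.05. Values are given ± the standard error of that fit. In untreated RUVBL1 cells 0 of 8 members were called (0 at an unadjusted p under 0.05, 0 in DESeq2), where 0.914% of all genes were called higher and 0.0188% lower. All 8 ratios lay below 0, with a member median of -0.311 beside -0.0447 over all genes. Some of the signs rested on single libraries. Without replicate 1 of the uncoupled beads the median was -0.119, with KRT8 at 0.21 and CTNNB1 at 0.16. Without replicate 2 of them it was -0.492, and without replicate 1 of the GFP beads CLDN4 was at 0.16. KRT19 reached at most 5.16e-05, and EPCAM, CDH1, KRT18 and JUP stayed below 0 in every alternative. With all libraries, E-cadherin lay lowest at -0.48 ± 0.24 (95% interval -0.97 to 0.020) and plakoglobin next at -0.46 ± 0.23. The highest upper bound was that of CLDN4, a fold of 1.39. The 2 groups of libraries did not overlap for 4 members, EPCAM, CDH1, KRT18, JUP, all lower on GFP beads, as in 18.7% of all genes, and for 0 in the other direction, against 18.6% of all genes. For scale, the mRNA of PRPF8, a U5 snRNP protein, was at 6.44 ± 0.45 in the same comparison.

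With puromycin the members spread out on the RUVBL1 beads. E-cadherin, claudin 4, beta-catenin and plakoglobin had positive ratios of GFP over uncoupled beads, EPCAM had a negative one, and the keratins lay between, though none passed the threshold. The ratios were 0.69 ± 0.24 for CDH1 (adjusted p = 0.0538), 0.72 ± 0.27 for CLDN4 (adjusted p = 0.0769), 0.71 ± 0.25 for CTNNB1 (adjusted p = 0.0632) and 0.53 ± 0.23 for JUP (adjusted p = 0.131). EPCAM was at -0.58 ± 0.22 (adjusted p = 0.0752). KRT8 was at 0.47 ± 0.28, KRT18 at -0.17 ± 0.25 and KRT19 at 0.024 ± 0.25. None passed edgeR's threshold, so 0 of 8 were called, where 9.95% of all genes were called higher and 3.82% lower. At an unadjusted p under 0.05 there were 4 higher and 1 lower, beside 2639 and 1851 of the 15976 genes tested. DESeq2 called 3, CDH1 and CTNNB1 higher and EPCAM lower. In a fit of all 24 libraries 4 were called, CDH1, CLDN4 and CTNNB1 higher and EPCAM lower. The share of all genes called in DESeq2 or in that fit was not tallied. Upper-quartile scaling turned the share of genes called to 8.52% higher and 7.39% lower. Both GFP libraries lay above both uncoupled ones for 5 members, CDH1, CLDN4, KRT8, CTNNB1, JUP, as in 31.8% of all genes, and below them for 2, EPCAM, KRT18, as in 30.7% of all genes.

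Members of both classes lay on either side of 0, EPCAM at -0.58 ± 0.22 and CDH1 at 0.69 ± 0.24 among the mRNAs read at the endoplasmic reticulum, and KRT18 at -0.17 ± 0.25 and CTNNB1 at 0.71 ± 0.25 among those read in the cytosol. The median was 0.694 over the 3 adhesion mRNAs and 0.47 over the 5 cytosolic ones, beside 0 over all genes.

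With CB-6644, alone or with puromycin, no member was called. Under CB-6644 0 of 8 were called in edgeR (0 at an unadjusted p under 0.05, 0 in DESeq2), where 1.87% of all genes were higher and 0.557% lower. The ratios ran from -0.34 ± 0.22 for EPCAM to 0.32 ± 0.25 for CTNNB1. Total-count scaling shifted the median of all genes in this comparison to 0.26, and with it the member median to 0.235, against 0.0191 and -0.0314 with TMM. With both drugs 0 of 8 were called (0 unadjusted, 0 in DESeq2), where 0.557% of all genes were higher and 0% lower. EPCAM was again lowest at -0.43 ± 0.22 (95% interval -0.88 to 0.017), and CDH1 was highest at 0.22 ± 0.24. The groups did not overlap for CTNNB1 upwards and for EPCAM, KRT18, KRT19 downwards under CB-6644, and for EPCAM downwards under both drugs, as in 23.1% and 24.9% of all genes under CB-6644 and 22.7% and 24% under both drugs. The GFP libraries that stood apart, replicate 2 under CB-6644 and replicate 1 under both drugs, each belong to these comparisons, and leaving out either made no member called.

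With RPAP3 as bait no member was called either, and the intervals were narrower. In untreated cells 0 of 8 were called in edgeR (0 unadjusted, 0 in DESeq2), where 1.53% of all genes were higher and 0.00658% lower. The ratios ran from -0.20 ± 0.16 for CLDN4 to 0.12 ± 0.13 for EPCAM, and the largest upper bound was a fold of 1.34 for KRT18. After puromycin 0 of 8 were called (0 unadjusted, 0 in DESeq2), where 0.46% of all genes were higher and 0% lower. The ratios ran from -0.18 ± 0.13 for CTNNB1 to 0.15 ± 0.17 for KRT18, with an upper bound of 1.42-fold for KRT18. Without a drug the RPAP3 groups did not overlap for EPCAM, higher on GFP beads as in 17.4% of all genes, and for CTNNB1, lower as in 16.5%. After puromycin they overlapped for all 8, against 18.5% of all genes apart upwards and 16.5% downwards. PRPF8 was at 5.13 ± 0.41 on untreated RPAP3 beads.

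**Figure D2:**
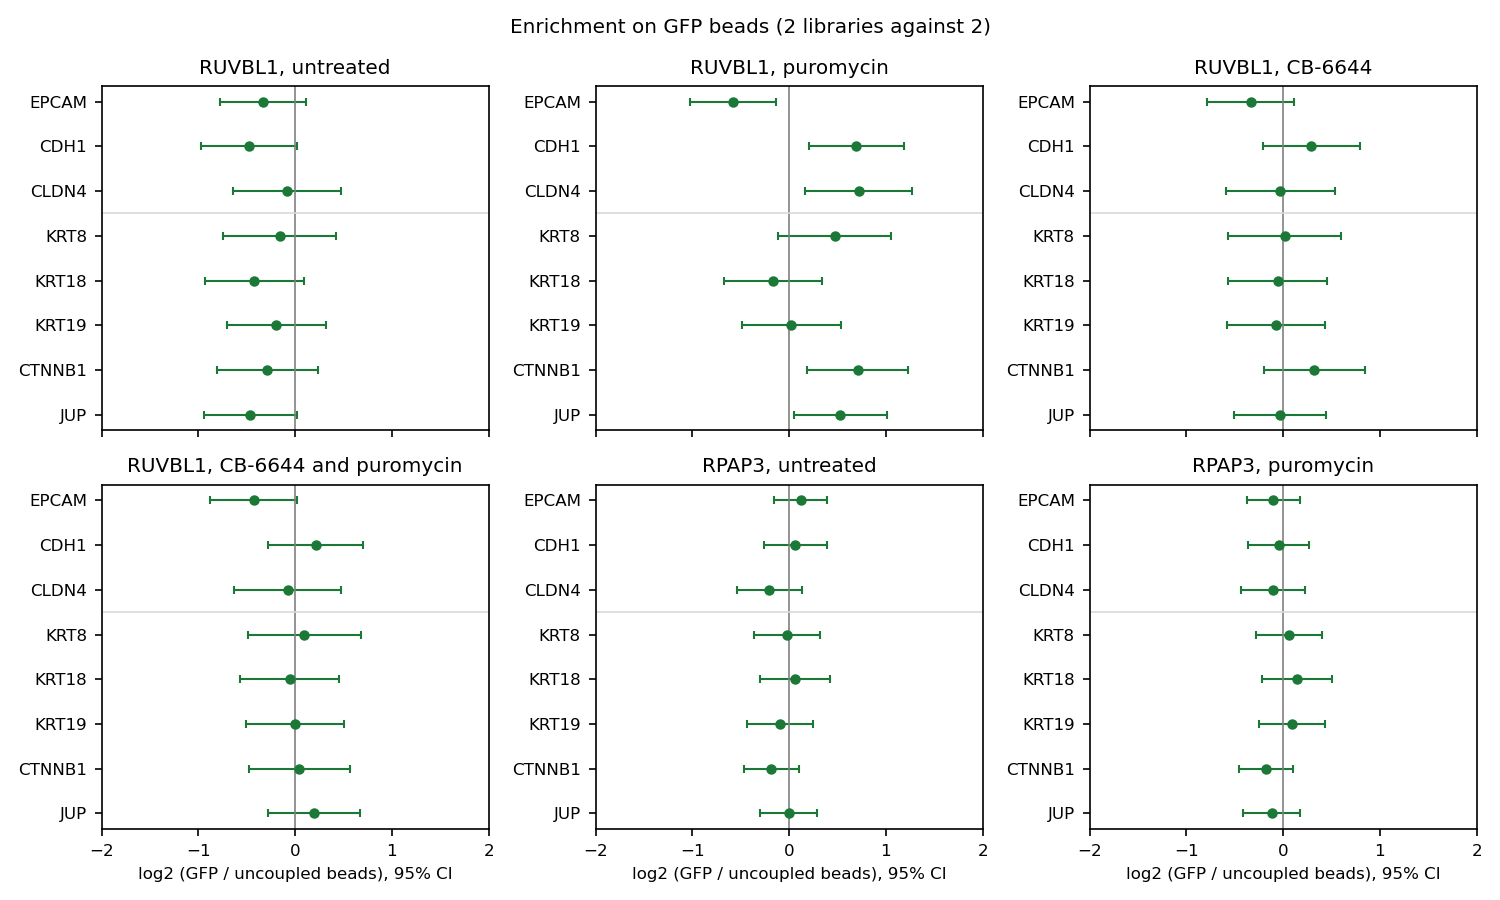
Enrichment of each mRNA on GFP beads as log2 of GFP over uncoupled beads (x axis) in the 6 combinations of line and drug, points with 95% intervals of the edgeR fit, the 3 adhesion mRNAs above the grey line and the 5 cytosolic ones below it. After puromycin in the RUVBL1 line CDH1 lay at 0.69 and EPCAM at -0.58, while all RPAP3 values lay between -0.20 and 0.15.

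The effect of each drug on enrichment was tested as a difference of log2 ratios. With puromycin the estimated difference in RUVBL1 enrichment was 1.17 ± 0.34 for CDH1 (adjusted p = 0.191), 1.00 ± 0.36 for CTNNB1 (adjusted p = 0.339), 0.99 ± 0.33 for JUP (adjusted p = 0.278) and, for CLDN4, 0.80 ± 0.38 (adjusted p = 0.491). EPCAM was at -0.25 ± 0.30. No member was called in edgeR (4 at an unadjusted p under 0.05, 0 in DESeq2), where 0.0376% of all genes were called higher and 0.0751% lower. Those 4 were all higher, beside 1053 of 15976 genes higher and 535 lower at the same unadjusted threshold. Without replicate 2 of the untreated uncoupled beads, the library that stood apart, CTNNB1 (1.33, adjusted p = 0.0384) and JUP (1.28, adjusted p = 0.0319) were called. Without replicate 1 of those beads CTNNB1 was at 0.55 and JUP at 0.61 (adjusted p = 0.85 for each), 1 member had an unadjusted p under 0.05, and the member median was 0.4, against 0.716 with all libraries. Adjusted p-values of CTNNB1 and JUP missed 0.05 in each of the other alternatives. Under CB-6644 the puromycin estimates ran from -0.28 ± 0.36 for CTNNB1 to 0.23 ± 0.33 for JUP, with 0 of 8 called (0 unadjusted, 0 in DESeq2), where 0% of all genes rose and 0.0501% fell.

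The CB-6644 estimate for RUVBL1 enrichment was 0.77 ± 0.34 for CDH1 in cells without puromycin (unadjusted p = 0.034 and adjusted p = 0.391 in edgeR), and the other members lay between -0.0028 ± 0.31 for EPCAM and 0.61 ± 0.36 for CTNNB1. No member was called (1 unadjusted, 0 in DESeq2), where 0.138% of all genes rose and 0.0501% fell. Unadjusted, 1049 of 15976 genes rose and 829 fell. In cells with puromycin the change was lowest for CLDN4, at -0.80 ± 0.38 (unadjusted p = 0.0469 and adjusted p = 0.579 in edgeR), and 0 of 8 were called (1 unadjusted, 0 in DESeq2), where 0.0751% of all genes rose and 0.0313% fell. Unadjusted, 337 of 15976 genes rose and 1022 fell. The RPAP3 estimates for puromycin lay between -0.22 ± 0.19 for EPCAM and 0.19 ± 0.23 for KRT19, with 0 of 8 called (0 unadjusted, 0 in DESeq2), where 0.00658% of all genes rose and 0.243% fell.

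RUVBL1 and RPAP3 enrichment were also set against each other in a fit of all 24 libraries, where the bait, the cell line and the library set cannot be told apart. In untreated cells 0 of 8 differed in edgeR (0 unadjusted, 0 in DESeq2), where 0.347% of all genes were higher with RUVBL1 and 0.0599% lower. The differences, RUVBL1 minus RPAP3, ran from -0.49 ± 0.30 for CDH1 to 0.18 ± 0.35 for CLDN4. After puromycin they ran from -0.44 ± 0.27 for EPCAM to 0.92 ± 0.31 for CTNNB1 (adjusted p = 0.0882). None was called in edgeR (4 unadjusted), where 3.98% of all genes were higher with RUVBL1 and 0.473% lower, a split of 2.94% and 1.32% with upper-quartile scaling. At an unadjusted p under 0.05, 2072 of 16695 genes were higher and 1149 lower. DESeq2 called CTNNB1, and a fit of the 8 compared libraries alone called 5, CDH1, CLDN4, CTNNB1 and JUP higher with RUVBL1 and EPCAM lower. The share of all genes called by either was not tallied.

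Puromycin raised all 8 mRNAs on the uncoupled beads of the RPAP3 line, which carry no anti-GFP. EPCAM, CDH1, CTNNB1 and JUP were higher by 3.96, 3.71, 3.74 and 3.47 fold, the keratins by 2.27 to 3.07 fold and CLDN4 by 1.66 fold. In edgeR's test 8 of 8 were called higher, where 23.5% of all genes were called higher and 19.4% lower (18.8% and 28.4% with upper-quartile scaling). The member median was 1.71 on the log2 scale, beside -0.0561 over all genes. EPCAM rose by 1.99 ± 0.14 (adjusted p = 7.21e-10), reaching 432 ± 39.9 CPM after puromycin, against 109 ± 7.89 CPM untreated (SD, n = 2 each). CDH1 rose by 1.89 ± 0.16 (adjusted p = 5.12e-09). CLDN4 rose least, by 0.73 ± 0.16 (adjusted p = 0.000816), and missed the threshold in a fit of all 24 libraries (0.63, adjusted p = 0.0568).

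The cytosolic members rose as well. KRT8 was higher by 1.62 ± 0.17 (adjusted p = 1.14e-07), at 1764 ± 222 CPM after puromycin, against 575 ± 103 CPM untreated (SD, n = 2 each). KRT19 was higher by 1.37 ± 0.17 and KRT18 by 1.18 ± 0.17. Of the catenins, CTNNB1 was higher by 1.90 ± 0.14 (adjusted p = 1.44e-09) and JUP by 1.79 ± 0.15 (adjusted p = 4.4e-09). The class medians were 1.89 for the 3 adhesion mRNAs and 1.62 for the 5 cytosolic ones. For each of the 8 both puromycin libraries lay above both untreated ones, an arrangement found in 34.4% of all genes and, downwards, in 37%. Before any scaling, the 8 mRNAs together took 0.475% to 0.510% of the counts of the puromycin libraries, against 0.169% to 0.202% of the untreated ones. Most of these counts were of the keratins, as in puromycin replicate A with 85563 for KRT8, against 20514 for EPCAM and 2489 for CDH1. The pooled share therefore says little about the other members. Depth overlapped between these groups, and summed markers of squamous cells stood at 41.7 to 46.3 CPM after puromycin, against 60.6 to 79.0 CPM untreated, with KRT10 alone of 5 at a median of 5 CPM or more. Mesenchymal markers summed to 29.6 to 30.2 CPM after puromycin, against 27.0 to 29.3 CPM untreated, with 3 of 7 at that level. Their part in the result was not tested. A higher share of the RNA left on plain beads cannot be told apart from more of the mRNA in the lysate.

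The GFP beads of the RPAP3 line, in a comparison added after the data had been seen, also had 8 of 8 higher after puromycin, with both libraries of each above both untreated ones as in 32.5% of all genes (36% downwards), where 22.1% of all genes were higher and 17.5% lower (18% and 26.1% with upper-quartile scaling), from 0.83 ± 0.16 for CLDN4 to 1.91 ± 0.14 for CTNNB1. EPCAM rose by 1.76 ± 0.14, CDH1 by 1.78 ± 0.16, JUP by 1.68 ± 0.15, KRT8 by 1.70 ± 0.17, KRT19 by 1.56 ± 0.17 and KRT18 by 1.26 ± 0.17. Lysates were passed over both kinds of beads and no member was called in RPAP3 enrichment. The rise on GFP beads is therefore not independent of that on uncoupled beads.

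**Figure D3:**
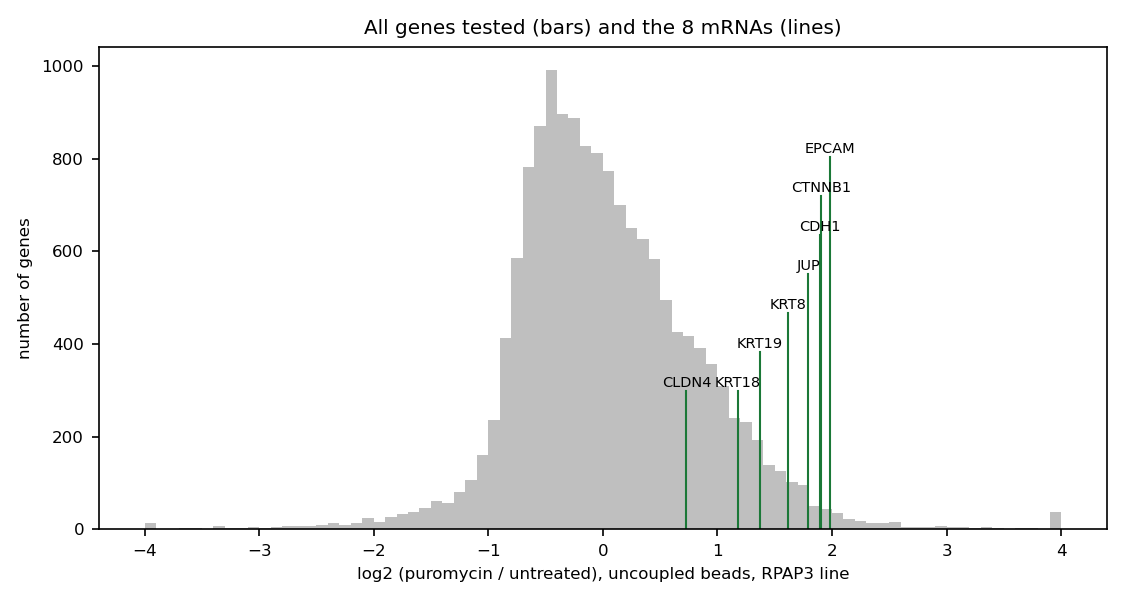
Number of genes (bars, y axis) by log2 of puromycin over untreated on uncoupled beads of the RPAP3 line (x axis, bins of 0.1, values beyond ±4 in the end bars), with the 8 mRNAs marked by lines whose heights only separate the labels. The 8 lines run from CLDN4 at 0.73 to EPCAM at 1.99, beside a median of -0.0561 over all genes.

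On the uncoupled beads of the RUVBL1 line none of the 8 was called after puromycin in edgeR (1 at an unadjusted p under 0.05, 0 in DESeq2), where 0% of all genes were higher and 0% lower. Unadjusted, 669 of 15976 genes were higher and 795 lower. EPCAM was at 0.68 ± 0.22, a fold of 1.61 (95% interval 1.18 to 2.19, unadjusted p = 0.00445 and adjusted p = 0.481), and the other members lay between -0.21 ± 0.27 for CLDN4 and 0.14 ± 0.28 for KRT8. The common coefficient of variation between replicates was 0.263 in the RUVBL1 fit and 0.142 in the RPAP3 fit. A like fold was therefore called less readily in the RUVBL1 line. CDH1 was at 0.024 ± 0.24 and CTNNB1 at 0.0050 ± 0.25, with upper bounds of 1.43 and 1.44 fold. These values near 0 rested on the untreated libraries: without replicate 1 of them CTNNB1 was at 0.45 and the member median at 0.344, and without replicate 2 CTNNB1 was at -0.32 and the median at -0.139, against 0.0328 with all libraries. The groups did not overlap for EPCAM upwards and KRT18 downwards, as in 19.7% and 20% of all genes. Under CB-6644, in an added comparison, puromycin gave 0.63 ± 0.22 for EPCAM and 0.55 ± 0.24 for CDH1, with 0 of 8 called in edgeR (2 unadjusted, 0 in DESeq2), where 0% of all genes were higher and 0% lower. Unadjusted, 872 of 15976 genes were higher and 550 lower. There 5 members (EPCAM, CDH1, CLDN4, KRT8, CTNNB1) lay apart upwards and 1 (KRT18) downwards, as in 28.8% and 27.7% of all genes. With CB-6644 alone all 8 estimates on uncoupled beads lay below 0, from -0.55 ± 0.24 for CDH1 to -0.15 ± 0.22 for EPCAM, with 0 of 8 called (1 unadjusted, CDH1, and 0 in DESeq2), where 0% of all genes were higher and 0% lower. Unadjusted, 359 of 15976 genes were higher and 501 lower. The member median was -0.302. Without replicate 1 of the untreated beads it was -0.0642, with KRT8 at 0.18, CTNNB1 at 0.051 and JUP at 0.0040, and without replicate 2 it was -0.446. The groups lay apart downwards for 5 members (EPCAM, CDH1, CLDN4, KRT18, KRT19) and upwards for 0, as in 17.9% and 17.5% of all genes.

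On the GFP beads of the RUVBL1 line 3 of 8 were called higher after puromycin in an added comparison, where 4.09% of all genes were higher and 0.951% lower (3.27% and 1.88% with upper-quartile scaling). CDH1 rose by 1.20 ± 0.24 (adjusted p = 0.00475), to 41.9 ± 2.22 CPM, against 18.3 ± 2.79 CPM untreated (SD, n = 2 each). JUP rose by 1.07 ± 0.23 (adjusted p = 0.00823) and CTNNB1 by 1.00 ± 0.25 (adjusted p = 0.0219). KRT8 was at 0.77 ± 0.28 (adjusted p = 0.123), CLDN4 at 0.59 ± 0.27 and EPCAM at 0.44 ± 0.22, while KRT18 and KRT19 were at 0.10 ± 0.25 and 0.26 ± 0.25. Both puromycin libraries lay above both untreated ones for 7 members, all but KRT18, as in 26.4% of all genes (25.8% downwards). In the wider list described below, 3 of 17 and 6 of 21 tested genes were also called higher on these beads. Among them were ITGB4 (1.36 ± 0.28) and PPL (1.37 ± 0.27). The 3 members called are E-cadherin and the armadillo proteins that bind its tail, and the rise was not particular to them. Their calls were sensitive to single libraries: 1 remained without GFP untreated replicate 1 (CTNNB1), 1 without GFP untreated replicate 2 (CDH1), 2 without GFP puromycin replicate 1 (CDH1 and JUP) and 0 without GFP puromycin replicate 2. DESeq2 and a fit of all 24 libraries added KRT8, but the share of all genes called by either was not tallied.

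**Figure D4:**
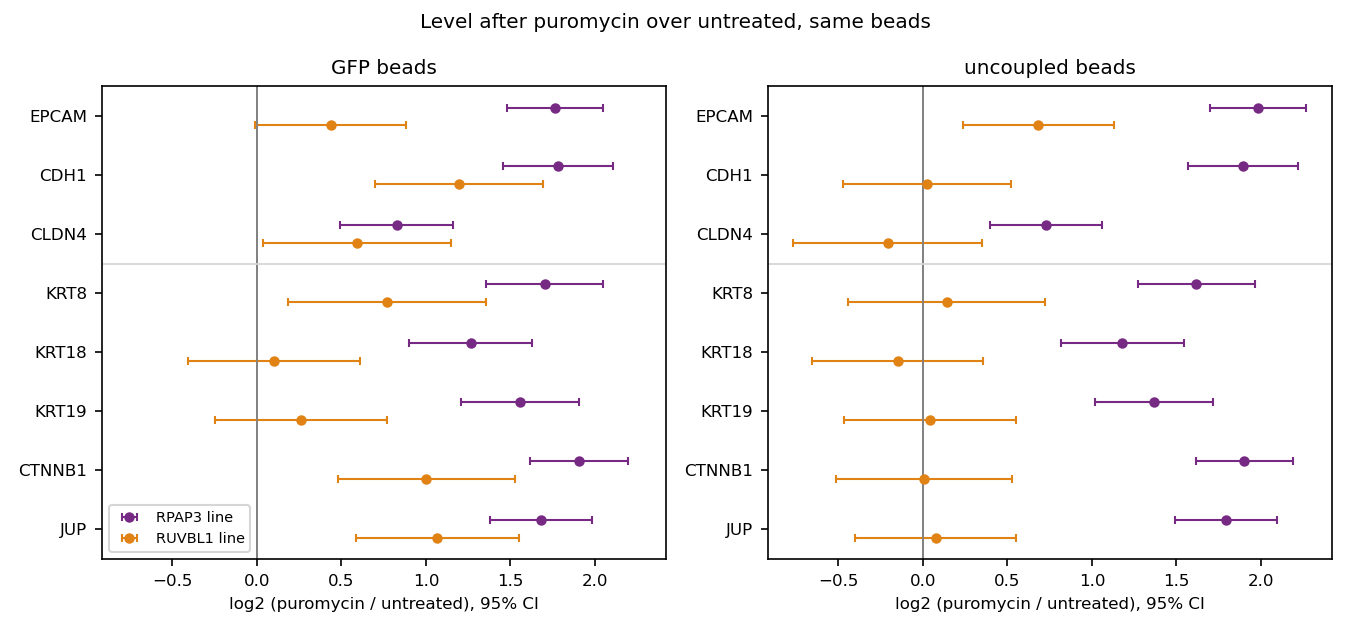
Log2 of puromycin over untreated (x axis) on GFP beads (left) and uncoupled beads (right), points with 95% intervals of the edgeR fit of each line, RPAP3 line (purple) above RUVBL1 line (orange). On uncoupled beads the RPAP3 points run from 0.73 to 1.99 and the RUVBL1 points from -0.21 to 0.68.

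The difference of the puromycin effect between the lines was tested in the fit of all 24 libraries, RPAP3 minus RUVBL1, as a further comparison added after the data had been seen. On uncoupled beads the difference was called above 0 for 7 of 8, where it was above 0 for 2.67% of all genes and below 0 for 0.485%. Among all genes such a difference need not be a rise in either line. The differences were 1.78 ± 0.32 for CTNNB1 (adjusted p = 0.00232), 1.75 ± 0.30 for CDH1 (adjusted p = 0.00196), 1.60 ± 0.30 for JUP (adjusted p = 0.0027) and 1.36 ± 0.35 for KRT8 (adjusted p = 0.0277). KRT18 differed by 1.21 ± 0.32, KRT19 by 1.21 ± 0.31 and EPCAM by 1.18 ± 0.27, and CLDN4 missed the threshold at 0.82 ± 0.35 (adjusted p = 0.19). CDH1, CTNNB1 and JUP were called whichever of the 8 libraries was left out. The other calls were not, and the count was 3 without RPAP3 uncoupled puromycin replicate A, RPAP3 uncoupled untreated replicate B, RUVBL1 uncoupled puromycin replicate 1 or 2, or RUVBL1 uncoupled untreated replicate 1, 4 without RPAP3 uncoupled puromycin replicate B, 5 without RPAP3 uncoupled untreated replicate A, and 7 without RUVBL1 uncoupled untreated replicate 2. On GFP beads 1 of 8 was called in edgeR, EPCAM at 1.23 ± 0.27 (adjusted p = 0.0446). There the difference was called above 0 for 0.138% of all genes and below 0 for 0.114%. The EPCAM call was lost when any of the 8 libraries was left out. KRT19 was at 1.20 ± 0.31 and KRT18 at 1.06 ± 0.32. DESeq2 called 4 there, KRT8, KRT18 and KRT19 beside EPCAM, but the share of all genes it called was not tallied.

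The lines also differed in level on uncoupled beads, a comparison added after the data had been seen, in which the line and the library set cannot be told apart. In untreated cells 6 of 8 were lower in the RPAP3 line than in the RUVBL1 line, where 13.3% of all genes were higher and 11.6% lower (12.1% and 13.2% with upper-quartile scaling, 11.2% and 13.4% with total counts). KRT8 differed by -1.59 ± 0.25, KRT18 by -1.40 ± 0.23, CTNNB1 by -1.11 ± 0.23, KRT19 by -0.87 ± 0.22, CDH1 by -0.74 ± 0.22 and JUP by -0.64 ± 0.21, while EPCAM was at -0.096 ± 0.19 and CLDN4 at -0.30 ± 0.25. The count was 2 without RUVBL1 uncoupled untreated replicate 1 and 3 without RPAP3 uncoupled untreated replicate B. After puromycin 4 of 8 were higher in the RPAP3 line, where 7.67% of all genes were higher and 6.86% lower (6.71% and 8.13% with upper-quartile scaling, 6.39% and 7.06% with total counts), namely EPCAM by 1.08 ± 0.19, CDH1 by 1.01 ± 0.21, JUP by 0.96 ± 0.21 and CTNNB1 by 0.67 ± 0.22. KRT8 was at -0.24 ± 0.24 and KRT18 at -0.19 ± 0.22. Here the count was 2 without RUVBL1 uncoupled puromycin replicate 1 or RPAP3 uncoupled puromycin replicate A, and 3 without the other replicate of either. The CTNNB1 call (adjusted p = 0.0406) was lost when any of the 4 libraries was left out, with total-count scaling and with the replicate block (adjusted p from 0.000256 to 0.314 over the alternatives). The lower untreated level and the larger puromycin effect of the RPAP3 line rest on the same untreated libraries.

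A wider list of junction and keratin genes held 22 genes whose products are made at the endoplasmic reticulum and 22 whose products are made in the cytosol. On the RPAP3 uncoupled beads 10 of 16 tested genes of the first class and 9 of 22 of the second were higher after puromycin, beside 23.5% of all genes, and none lower, with medians of 0.95 and 0.263, below those of the 8 members. CDH3, P-cadherin, rose by 1.91 ± 0.14, DSG2, a desmosomal cadherin, by 1.69 ± 0.13 and ITGA6, an integrin of hemidesmosomes, by 1.69 ± 0.13. In the cytosolic class CTNNA1, alpha-catenin, rose by 1.53 ± 0.14, ACTN4, an actin crosslinker, by 1.51 ± 0.15 and EZR, ezrin, by 1.14 ± 0.16. On the RPAP3 GFP beads 11 of 16 and 9 of 22 were higher, beside 22.1% of all genes, led by CDH3, DSG2 and ITGA6 (1.93 ± 0.14, 1.77 ± 0.13 and 1.52 ± 0.13) and by CTNNA1, ACTN4 and DSP (1.54 ± 0.14, 1.60 ± 0.15 and 1.85 ± 0.20). On the RUVBL1 uncoupled beads 0 of 17 and 0 of 21 were called after puromycin in edgeR, beside 0% of all genes. At an unadjusted p under 0.05, 1 and 1 were higher, beside 669 of 15976 genes. On the RUVBL1 GFP beads 3 of 17 and 6 of 21 were higher, beside 4.09% of all genes, DSG2 by 1.35 ± 0.23, CDH3 by 1.40 ± 0.24 and ITGB4 by 1.36 ± 0.28, and VCL, vinculin, by 1.30 ± 0.23, PPL, periplakin, by 1.37 ± 0.27 and PKP3, plakophilin 3, by 1.22 ± 0.25. The line difference on uncoupled beads was called for 4 of 18 (CDH3 1.35 ± 0.30, DSG2 1.24 ± 0.28 and ITGB4 1.39 ± 0.33 with the smallest p) and 1 of 22 (CTNNA1 1.39 ± 0.31), beside 2.67% of all genes.

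Some of these genes were called in enrichment. After puromycin in the RUVBL1 line, ITGB4, an integrin of hemidesmosomes (1.27 ± 0.28), and NECTIN1, a nectin (1.03 ± 0.23), were higher on GFP beads and PERP, a desmosomal membrane protein, was lower (-0.79 ± 0.26) among 17 tested, beside 9.95% of all genes higher and 3.82% lower. Of 21 tested with cytosolic products 4 were higher, led by PKP3 (1.26 ± 0.25) and PPL (1.14 ± 0.27). Under CB-6644 2 of 21 were higher, beside 1.87% of all genes, among them EVPL, envoplakin (1.68 ± 0.39). DSP, desmoplakin, was the called gene of this class under both drugs (2.04 ± 0.32), beside 0.557% of all genes higher. It was also the called gene of this class with RPAP3, at 2.65 ± 0.20 after puromycin and 1.04 ± 0.20 without, a change of 1.61 ± 0.28. Beside these, 0.46%, 1.53% and 0.00658% of all genes were called higher. No gene of either class was called in the RUVBL1 untreated enrichment in edgeR, where 0.914% of all genes were higher and 0.0188% lower. At an unadjusted p under 0.05, 2 of 17 and 1 of 21 were lower, beside 660 of 15976 genes. DESeq2 was not tallied for these lists.

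The members were also set against each other across libraries. In the RPAP3 line the 4 puromycin and 4 untreated libraries form separate clusters for every member, so no correlation is given there. Over the 16 RUVBL1 libraries Pearson's r of log2 levels between members ran from -0.0898 (CLDN4 with KRT18) to 0.914 (CTNNB1 with JUP). CDH1 with JUP had 0.893, KRT8 with JUP 0.888 and KRT8 with CTNNB1 0.863. These are descriptions of libraries that share their treatments and scaling. Over all 24 libraries with each line's mean removed, a measure that the split of the RPAP3 libraries by puromycin enters, among 10388 candidate genes with a mean of at least 5 CPM in each line, the gene most like EPCAM was TMED10 (r 0.981), a cargo receptor between the endoplasmic reticulum and the Golgi. For CDH1 it was SERPINH1 (0.972), a collagen chaperone, and for CLDN4 TWF2 (0.895), an actin-binding protein. KRT8 was most like GART (0.986), a purine synthesis enzyme, KRT18 most like KRT19 (0.947) and KRT19 most like LGMN (0.966), a lysosomal protease. CTNNB1 (0.975) and JUP (0.978) were both most like PGK1, a glycolytic enzyme, and each had the other among its 3 nearest genes. CDH1 had JUP as the third (0.966).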

How the data were processed

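The authors deposited raw read counts per gene for 24 libraries in a table of 28307 genes, with no normalization. TopHat2 2.1.1, featureCounts 2.0.3 and hg38 are named, per the submitters' processing notes. The counting options (strand, multiply placed reads) and the gene annotation are not given in the sources used here. The library kit keeps strand, per the labels' protocols. Counts were tested with edgeR 4.0.16 (R 4.3.3): filterByExpr, TMM, robust quasi-likelihood fits of the 16 RUVBL1 libraries (15976 genes), the 8 RPAP3 libraries (15202) or all 24 (16695), with p-values adjusted over the genes of a comparison and not over the 23 comparisons. Standard errors derive from the F statistic and pool the spread over a fit. DESeq2 1.42.0 was an alternative. The share of all genes called was tallied for the main fits and the other scalings only. Replicates of a group differed by more than sampling noise (chi-square per degree of freedom 12.9 to 93.1), and none were merged. The members, lists and 16 of the comparisons were chosen with earlier results of these data known, and 7 more were added after the data had been seen. Genes outside the members were named by smallest p, up to 3 per class and comparison, and 1 gene so chosen is not reported here. The fit was tested on simulated counts only for untreated RUVBL1 enrichment and the RPAP3 puromycin effect on uncoupled beads. Those counts had the same spread for every gene and no library that stood apart. They do not bear on the other comparisons.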

Additional observations from a re-analysis of the deposited data

Results flagged for a closer look

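A test of the difference between the RPAP3 and RUVBL1 lines set apart the puromycin effect of 7 mRNAs on uncoupled beads and of 1 on GFP beads, as log2 values of RPAP3 minus RUVBL1 in the fit of all 24 libraries. On uncoupled beads these were EPCAM at 1.18, CDH1 at 1.75, KRT8 at 1.36, KRT18 at 1.21, KRT19 at 1.21, CTNNB1 at 1.78 and JUP at 1.60, each higher in the RPAP3 line. On GFP beads it was EPCAM, at 1.23. The lines differ in bait, in library set and in depth, 30844089 to 50394245 counts per RPAP3 library and 9019665 to 33051512 per RUVBL1 library, and these cannot be told apart.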

How the results depend on the processing

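All 8 members remained called on the RPAP3 beads of both kinds after puromycin in every alternative run (upper-quartile and total-count scaling, no filter on low counts, DESeq2, the replicate block, all 24 libraries, keratins summed with their copies, and each library left out), except CLDN4 on uncoupled beads in the fit of all 24 libraries. No called value changed sign. The RUVBL1 enrichment after puromycin, with 0 members called, had 1 with upper-quartile scaling, 2 without the filter, 2 with the replicate block, 3 in DESeq2 and 4 in the fit of all 24 libraries. The RUVBL1 minus RPAP3 enrichment after puromycin, also 0, had 1 in DESeq2 and 5 from the compared libraries alone. The line difference of the puromycin effect on GFP beads, 1, had 2 with upper-quartile scaling, 4 in DESeq2 and 3 from the compared libraries alone. Leaving out each library gave 0 to 2 calls for the puromycin change in RUVBL1 enrichment, 0 to 2 for the RUVBL1 puromycin effect on GFP beads, 3 to 7 for the line difference on uncoupled beads, 0 to 0 for that on GFP beads, 2 to 6 for the untreated line difference in level and 2 to 3 for that after puromycin. With a library left out, the lone replicate is assumed to vary like the other groups. Upper-quartile scaling moved the median of all genes in the RPAP3 puromycin effect on uncoupled beads to -0.23, and that of the members to 1.53. Replicate numbers share no stated batch, and deviations of same-numbered libraries correlated from -0.412 to 0.27 (median 0.0376) over 28 pairs of RUVBL1 groups and from -0.117 to 0.159 over 6 pairs of RPAP3 groups. The replicate block changed no other count by over 1.5 times. The causes of these shifts were not tested.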
